A study of Mus musculus with 33 samples.

Results

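The genes described here encode the synaptic vesicle SNARE machinery: Snap25, Vamp1, Vamp2, Stx1a, Napa, Napb, Nsf and Sv2a. They were chosen by symbol, as 8 genes of the 37926 records in the RNA tables and of the 36194 genes in the iCLIP files, and all 8 were found in both. The set was put together with RNA and crosslinking values of these same libraries in view, so the values and calls below describe these libraries and are no independent evidence about the genes. Transmitter release depends on SNARE proteins, which zip together in a bundle of helices and pull a vesicle onto the plasma membrane. Synaptobrevins sit on the vesicle, syntaxin and SNAP-25 sit on the plasma membrane, and after fusion the ATPase NSF with its SNAP adaptors takes the bundle apart so that its members can be used again. Botulinum toxins paralyse muscle by cutting SNARE proteins in motoneuron endings.

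The study compared cultured CD-1 mouse motoneurons in which hnRNP R, an RNA-binding protein, or its partner 7SK, a noncoding nuclear RNA, had been knocked down with control motoneurons, whose libraries are titled GFP. Motoneurons had been grown in microfluidic chambers, and total RNA was taken from the axonal side and from the somatodendritic side. For each side there were 3 hnRNP R knockdown, 4 7SK knockdown and 4 control libraries. The labels do not say how either knockdown was achieved, and both knockdowns share the control libraries. In the iCLIP experiments, RNA crosslinked to hnRNP R was recovered as cDNAs from motoneurons labelled wildtype (antibody 1, 2 libraries) and from NSC34 cells, a motoneuron-like hybrid line (antibody 1, 2 libraries), with a single IgG library from NSC34 cells as background. Nuclear and cytoplasmic fractions gave 1 library each from motoneurons with antibody 1 and from NSC34 cells with antibodies 1 and 2. No age or sex is given, and nothing in the labels says that replicates came from separate cultures, so a p-value here reflects the scatter of these libraries alone, which may be technical.

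The RNA data were 1 FPKM value (a fragment count set against transcript length and sequencing depth) for each group, so there is no spread between replicates and the read depth is unknown. In the authors' deposited table for cell bodies, Hnrnpr was at 10.8 FPKM after hnRNP R knockdown and 27.2 FPKM in control (q = 0.310, where q is the authors' p adjusted over the tested genes). Rn7sk, the 7SK gene, was at 6370 FPKM after 7SK knockdown and 9104 FPKM in control cell bodies (q = 0.00407), but at 3508 FPKM in the axon group labelled 7SK knockdown and 2708 FPKM in control axons (q = 0.594), a direction against the label, per the authors' deposited table. Of 8 motoneuron markers found, 2 reached 1 FPKM in control cell bodies of the hnRNP R table (summed level 5.46 FPKM) and 3 stood at 0, while 7 neuronal markers summed to 1609 FPKM and 10 astrocyte and radial glia markers to 505 FPKM in the authors' deposited table. The 8 markers of other neuron types summed to 128 FPKM in the same control cell bodies, with 4 of them at 1 FPKM or more, in the authors' deposited table. In such bulk RNA, fewer cells of a type and less RNA per cell cannot be told apart. The unfractionated hnRNP R iCLIP libraries held 99762 to 456721 cDNAs, the IgG library 36280, the motoneuron fractions 91302 (nuclear) and 194816 (cytoplasmic), and the 4 NSC34 fractions 2796 to 48398.

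In control cell bodies the SNARE proteins of the synapse stood at different levels. Snap25, the plasma membrane SNARE that supplies a pair of helices, had 194 FPKM and Vamp2, the main synaptobrevin of the brain, 152 FPKM in the authors' deposited table. Nsf, the disassembly ATPase, followed at 56.9 FPKM, then Napb (beta-SNAP, the neuronal adaptor of NSF) at 49.4, Vamp1 (synaptobrevin of the spinal cord and neuromuscular junction) at 49.3, Napa (alpha-SNAP, the general adaptor) at 47.1, Sv2a (a vesicle glycoprotein and the binding site of levetiracetam) at 42.4 and Stx1a (syntaxin 1A) at 21.3 FPKM, all from the same authors' deposited table. On GRCm38 the records of Vamp1, Napb and Sv2a span chromosome 6 from 125215551 to 125244543, chromosome 2 from 148693985 to 148732467 and chromosome 3 from 96181151 to 96195521 in the authors' deposited table, and Snap25 spans chromosome 2 from 136713453 to 136782428. The Vamp1 record covers 28993 bases, against 6726 bases in RefSeq. All Vamp1 FPKM values here may thus include reads from beyond the RefSeq gene, which was not tested. Neighbours from Nsf to Sv2a lie close together, and without replicate values it cannot be said whether their order holds.

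All 8 genes were lower in control axons than in control cell bodies. Snap25 had 47.8 FPKM in axons against 194 FPKM in cell bodies, and Vamp2 had 33.5 FPKM in axons against 152 FPKM in cell bodies, in the authors' deposited tables. As log2 ratios of axons over cell bodies with 0.1 FPKM added, computed from the authors' deposited tables, these were -2.02 for Snap25 and -2.17 for Vamp2. Napb (-1.99), Vamp1 (-1.94) and Sv2a (-1.93) were close behind, Nsf was at -1.58, and Stx1a (-1.0) and Napa (-0.88) were the least reduced, from the same authors' deposited tables. Over 10921 genes with at least 1 FPKM on both sides 72.6% lay below 0 and the median ratio was -0.53. Of these genes 1.9% had a lower ratio than Vamp2, against 33.8% for Napa. Both compartments come from separate tables and have 1 value each, so no test was made. The 8 genes also lay below the median of all genes with the control values of the 7SK tables. Those values come from the same control libraries, scaled anew, so this is no separate check. Of the markers of other cells, the astrocyte list summed to 696 FPKM in control axons and 505 FPKM in control cell bodies and the fibroblast list to 802 FPKM in axons and 122 FPKM in cell bodies, per the authors' deposited tables. Lower in axons were the oligodendrocyte and Schwann list (19.8 FPKM in axons and 79.4 FPKM in cell bodies), the microglia list (11.2 FPKM in axons and 58.5 FPKM in cell bodies), the list of other neuron types (28.8 FPKM in axons and 128 FPKM in cell bodies) and the neuronal list (467 FPKM in axons and 1609 FPKM in cell bodies), per the authors' deposited tables, and the part of these cells in the ratios was not tested.

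After hnRNP R knockdown, a vesicle SNARE, an NSF adaptor and a vesicle glycoprotein fell in cell bodies. Vamp1 fell to 28.6 FPKM in hnRNP R knockdown cell bodies, against 49.3 FPKM in control (log2 ratio -0.79, authors' q = 0.00865), per the authors' deposited table. The Vamp1 value carries the limit of its long record given above. Napb fell to 30.1 FPKM in hnRNP R knockdown cell bodies, against 49.4 FPKM in control (log2 ratio -0.71, authors' q = 0.00865), per the authors' deposited table. Sv2a fell to 23.3 FPKM in hnRNP R knockdown cell bodies, against 42.4 FPKM in control (log2 ratio -0.86, authors' q = 0.00865), per the authors' deposited table. These 3 of 8 are set beside 0.614% of 2768 tested genes that passed in the lower direction (0.975% in either direction), and since this contrast was known when the genes were chosen, nothing is read from the difference. Each of the 3 has the smallest p that the authors' deposited table lists, 5e-05.

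The other 5 members did not pass on that side. Snap25 was at 165 FPKM in hnRNP R knockdown cell bodies and 194 FPKM in control (log2 ratio -0.24, q = 0.611), and Vamp2 at 145 FPKM in the knockdown and 152 FPKM in control (-0.06, q = 0.939), per the authors' deposited table. Thus of the vesicle SNAREs the less abundant Vamp1 passed the authors' test and Vamp2 did not, a difference between the genes that was not itself tested. Of the adaptors, Napa was at 40.7 FPKM in the knockdown and 47.1 FPKM in control (-0.21, q = 0.881), beside the called Napb, in the authors' deposited table. Nsf, on which both adaptors act, was at 55.4 FPKM in the knockdown and 56.9 FPKM in control (-0.04, q = 0.960) in the authors' deposited table. Stx1a alone had a higher value, 32.5 FPKM in the knockdown and 21.3 FPKM in control (0.61, q = 0.431), in the authors' deposited table. Neuronal markers as a whole summed to 1459 FPKM in the knockdown and 1609 FPKM in control, with 5 of 7 lower and 0 called, in the authors' deposited table. Markers of other neuron types summed to 129 FPKM in the knockdown and 128 FPKM in control, with 2 of 3 tested lower and 1 called as lower, in the authors' deposited table. The part of neuron content in the 3 falls was not tested.

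Knockdown of 7SK left 1 call among the members. Napb fell to 30.2 FPKM in 7SK knockdown cell bodies, against 45.4 FPKM in control (log2 ratio -0.59, authors' q = 0.0112), per the authors' deposited table, where 1.07% of 1954 tested genes passed in the lower direction and 2.51% in either. Sv2a was at 40.2 FPKM in 7SK knockdown cell bodies and 39.0 FPKM in control (0.04, q = 0.928), and Vamp1 at 40.8 FPKM in the knockdown and 45.3 FPKM in control (-0.15, q = 0.726), per the authors' deposited table. Snap25 (160 FPKM in 7SK knockdown and 179 FPKM in control cell bodies) and Vamp2 (154 FPKM in the knockdown and 140 FPKM in control) did not pass in the authors' deposited table. Neither did Napa (35.3 FPKM in the knockdown and 43.2 FPKM in control) or Nsf (43.4 FPKM in the knockdown and 52.3 FPKM in control), and q of these 4 ran between 0.630 and 0.835 in the authors' deposited table. Stx1a, at 25.5 FPKM in the knockdown and 19.6 FPKM in control, was not tested in the authors' deposited table. Neuronal markers summed to 1279 FPKM in the 7SK knockdown and 1480 FPKM in control cell bodies (6 of 7 tested lower, 1 called) in the authors' deposited table. Markers of other neuron types summed to 91.0 FPKM in the knockdown and 118 FPKM in control (3 of 3 tested lower, 0 called) in the authors' deposited table. Fibroblast markers summed to 176 FPKM in the knockdown and 112 FPKM in control (2 called as higher), astrocyte markers to 516 FPKM in the knockdown and 465 FPKM in control (1 called as higher) and microglia markers, of which 0 were tested, to 87.3 FPKM in the knockdown and 53.9 FPKM in control, in the authors' deposited table. The part of these cells in the Napb value was not tested. The knockdowns share control libraries, so the lower Napb in both is not 2 independent observations.

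**Figure D1:**
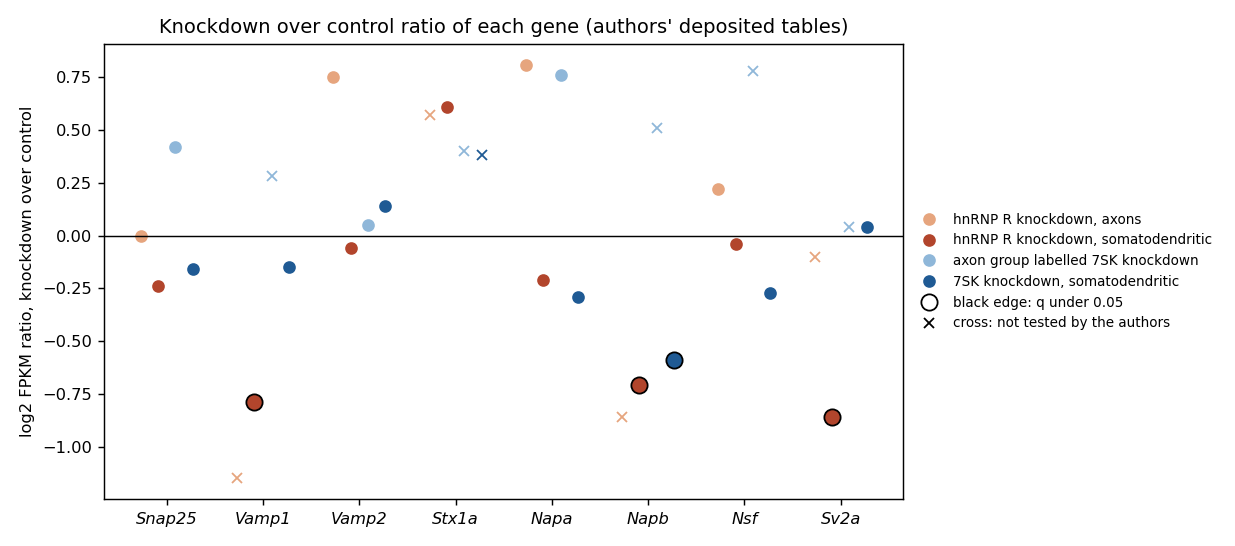
Log2 FPKM ratio of knockdown over control for each gene in the 4 comparisons. Large points with a black edge passed the authors' q of 0.05, plain points were tested and did not pass, and crosses were not tested. The called points are Vamp1, Napb and Sv2a after hnRNP R knockdown and Napb after 7SK knockdown, all on the somatodendritic side and between -0.59 and -0.86.

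In axons 0 of the 4 members tested after hnRNP R knockdown were called by the authors' test, where 0.114% of 1749 genes were called, and 0 of the 3 tested in the axon group labelled 7SK knockdown, where 3.07% of 1009 genes were. At the authors' unadjusted p under 0.05 the member counts were also 0, where 9.26% and 18.1% of those genes passed. Snap25 had 47.7 FPKM in hnRNP R knockdown axons and 47.8 FPKM in control axons (q = 0.998) in the authors' deposited table. Vamp2 had 56.5 FPKM in hnRNP R knockdown axons and 33.5 FPKM in control axons (log2 ratio 0.75, q = 0.725), and Napa 45.0 FPKM in the knockdown and 25.6 FPKM in control axons (0.81, q = 0.729), per the authors' deposited table. Nsf was at 22.0 FPKM in hnRNP R knockdown axons and 18.9 FPKM in control axons (0.22, q = 0.906) in the authors' deposited table. The 3 genes that fell in cell bodies lay under the level at which the authors' test ran in axons, where the higher group of every tested gene had at least 21.8 FPKM. Vamp1 was listed at 5.75 FPKM in hnRNP R knockdown axons and 12.75 FPKM in control axons, Napb at 6.82 FPKM in the knockdown and 12.4 FPKM in control, and Sv2a at 10.35 FPKM in the knockdown and 11.1 FPKM in control, all untested in the authors' deposited table. Stx1a, also untested, was listed at 15.7 FPKM in hnRNP R knockdown axons and 10.6 FPKM in control axons in the authors' deposited table.

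All 8 members had a higher FPKM in the axon group labelled 7SK knockdown than in control axons, with log2 ratios from 0.04 (Sv2a) to 0.78 (Nsf) in the authors' deposited table. Of the 1009 genes tested there 37.8% were lower in that group. The median over all tested genes there was 0.23, and after centring on it 2 of the 8 members lay below 0. The tested members were Snap25, at 65.6 FPKM in that group and 49.2 FPKM in control axons (q = 0.663), Vamp2, at 35.7 FPKM in that group and 34.4 FPKM in control axons (q = 0.962), and Napa, at 44.7 FPKM in that group and 26.4 FPKM in control axons (q = 0.502), per the authors' deposited table. The untested Nsf was at 33.6 FPKM in that group and 19.5 FPKM in control axons, Napb at 18.1 FPKM in that group and 12.7 FPKM in control, and Vamp1 at 15.9 FPKM in that group and 13.1 FPKM in control, in the authors' deposited table. Neuronal markers summed to 767 FPKM in that group and 479 FPKM in control axons, and 12 microglia and macrophage markers to 142 FPKM in that group and 11.4 FPKM in control axons, in the authors' deposited table. Their part in the member values was not tested.

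Whether a knockdown acted differently on the 2 sides could be asked for few members. An approximate z test of the axonal minus the somatodendritic log2 ratio, with standard errors taken back from the authors' p-values, was possible for Snap25, Vamp2, Napa and Nsf after hnRNP R knockdown. The differences were 0.23 ± 0.55, 0.82 ± 0.60, 1.02 ± 0.75 and 0.25 ± 0.52 (SE) in that order, with Benjamini-Hochberg adjusted p-values of 0.81 to 0.948, and 0% of 1505 genes passed. For 7SK the test could be made for Snap25 (0.57 ± 0.50), Vamp2 (-0.09 ± 0.52) and Napa (1.06 ± 0.75), with adjusted p-values of 0.593 to 0.97, where 0.450% of 888 genes passed. Vamp1, Napb and Sv2a had no axonal test, so a fall limited to cell bodies was not shown for them.

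Among other genes of the release and recycling machinery, few were called. Of 30 other SNAREs, 43 SNARE regulators, 26 further vesicle membrane proteins and 25 vesicle endocytosis genes, 6, 14, 15 and 21 were tested in hnRNP R knockdown cell bodies in that order, and the sole call was Scamp5, a secretory carrier membrane protein. It rose to 71.8 FPKM in hnRNP R knockdown cell bodies, against 47.7 FPKM in control (log2 ratio 0.59, authors' q = 0.00865), per the authors' deposited table. The median log2 ratios of these lists were -0.14, -0.09, 0.08 and -0.03, beside -0.22 for the 8 members and 0.02 for all tested genes. In 7SK knockdown cell bodies 4, 12, 10 and 15 genes of these lists were tested and 1 was called. In axons none of the genes of these lists was called in either of the 2 authors' deposited tables.

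By their 4 log2 ratios, the genes nearest to several members among 1871 compared records were found by Euclidean distance, as a description. The nearest to Vamp1 was Bdh1 at 0.21, followed by Ndufc1 at 0.37 and Chga at 0.39. Napb had Slc35f1 first at 0.36. Snap25 had Mast1 at 0.08, the closest pair found for a member, and Nsf had Mdh1 at 0.15. The 4 ratios rest on shared controls, and their nearness carries no replicate error.

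The promoters of the 3 genes that fell together after hnRNP R knockdown are shown here, to set their letters side by side. They are RefSeq sequences of build GRCm38.p6, from 250 bases before to 50 bases after the gene start, read along the gene's strand. Capitals mark 2 motifs searched on both strands, the CCAAT box (CCAAT or ATTGG) and the GC box (GGGCGG or CCGCCC), which do not overlap one another.
Vamp1 (chr6:125215331-125215630, plus strand): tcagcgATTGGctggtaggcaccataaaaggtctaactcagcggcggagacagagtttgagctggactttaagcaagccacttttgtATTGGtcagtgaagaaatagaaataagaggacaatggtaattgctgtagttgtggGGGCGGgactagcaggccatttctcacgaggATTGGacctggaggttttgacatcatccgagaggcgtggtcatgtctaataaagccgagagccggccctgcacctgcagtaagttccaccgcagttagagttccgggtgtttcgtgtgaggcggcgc
Napb (chr2:148732371-148732670, minus strand): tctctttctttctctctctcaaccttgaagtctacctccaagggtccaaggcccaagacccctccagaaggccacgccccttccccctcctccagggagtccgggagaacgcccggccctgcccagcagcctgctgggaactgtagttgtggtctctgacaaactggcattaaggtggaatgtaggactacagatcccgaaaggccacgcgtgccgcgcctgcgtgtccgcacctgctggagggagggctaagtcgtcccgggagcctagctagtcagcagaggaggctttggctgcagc
Sv2a (chr3:96180977-96181276, plus strand): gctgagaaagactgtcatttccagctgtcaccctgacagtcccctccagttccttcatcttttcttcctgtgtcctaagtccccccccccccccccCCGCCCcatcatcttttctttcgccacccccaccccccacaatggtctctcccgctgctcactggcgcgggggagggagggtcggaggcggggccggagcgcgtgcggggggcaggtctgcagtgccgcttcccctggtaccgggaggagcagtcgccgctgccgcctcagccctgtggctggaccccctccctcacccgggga
The Vamp1 window held 3 CCAAT boxes and 1 GC box, the Sv2a window 1 GC box, and the Napb window neither. Of 32851 promoter windows of the same length, 37.4% held a CCAAT box, 35.7% a GC box and 39.7% neither. GC content was 51.7% for Vamp1, 61.3% for Napb and 68.0% for Sv2a, beside a median of 52.7%. The 3 windows thus had no motif in common among those searched, and a match of letters is a description, not a site.

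Crosslinking of hnRNP R to these RNAs was read from iCLIP cDNA counts on the gene's own strand. Snap25 had 217 and 167 cDNAs in motoneurons, 331 and 74 in NSC34 cells and 5 in the IgG library. Scaled to each library's total as CPM, these were 604 and 523 CPM in motoneurons, 725 and 742 in NSC34 cells and 138 in the IgG library. All 4 hnRNP R libraries lay above the IgG library, which came from NSC34 cells and gives the 2 motoneuron libraries no background of their own. In the edgeR fit of NSC34 cells over IgG, Snap25 was called, with a log2 ratio of 2.67 ± 0.54 (SE) and an adjusted p of 0.00226, where 0.533% of 9567 genes were called and 0.199% in the higher direction. From counts alone the ratio over IgG was 5.28 (95% interval 2.24 to 16.4, exact binomial, counting error only). The call rests on NSC34 replicate 2, without which the adjusted p was 0.119 and the log2 ratio 2.68, and DESeq2 did not make it (log2 ratio 2.62). The header of the IgG file names hnRNP R as its protein and carries the same library number, 14, as NSC34 replicate 2, so that it is the IgG library rests on its title.

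For the other members the NSC34 signal was not separable from IgG at this depth. Nsf had 118 cDNAs over both NSC34 libraries and 6 in IgG, a ratio per library total of 1.28 (0.572 to 3.56), and Vamp1 had 61 cDNAs in NSC34 cells and 4 in IgG, a ratio of 0.994 (0.369 to 3.77). Stx1a (40 cDNAs in NSC34 cells and 3 in IgG, 0.869, 0.277 to 4.39), Napa (18 in NSC34 cells and 3 in IgG, 0.391, 0.114 to 2.07) and Vamp2 (11 in NSC34 cells and 1 in IgG, 0.717, 0.104 to 30.9) likewise had intervals that span 1. Napb had 15 cDNAs in NSC34 cells and 0 in IgG, and Sv2a 2 in NSC34 cells and 0 in IgG, but 3 counts in IgG would be 82.7 CPM, above the 27.0 and 3.59 CPM seen in NSC34 cells, so no fold is given. There was no IgG library from motoneurons, so motoneuron counts have no background of their own.

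Among the vesicle proteins, Sv2a and Vamp2 carried more hnRNP R cDNAs in motoneurons than in NSC34 cells and Vamp1 fewer. RNA levels of NSC34 cells were not analysed here, so crosslinking is not set against the level of the RNA. In the same edgeR fit the motoneuron markers Isl1 (log2 ratio -5.37) and Prph (-5.37) were lower in the motoneuron libraries. Markers of other neuron types, Gad1 (6.68), Gad2 (6.25) and Slc6a5 (7.64), and of astrocytes, Slc1a3 (6.45) and Fabp7 (6.15), were higher there. The part of cell content in the member ratios was not tested. Sv2a had 9 and 10 cDNAs in the motoneuron libraries (25.1 and 31.3 CPM) against 1 and 1 in NSC34 cells (2.19 and 10.0 CPM). The Sv2a values in NSC34 cells thus rest on 1 cDNA in each library. The edgeR log2 ratio of motoneurons over NSC34 cells was 3.64 ± 0.96 (SE, n = 2 libraries each, adjusted p = 0.00145). Vamp2 had 21 and 13 cDNAs in motoneurons (58.5 and 40.7 CPM) against 9 and 2 in NSC34 cells (19.7 and 20.0 CPM). Its log2 ratio was 2.25 ± 0.56 (edgeR adjusted p = 0.000746). Vamp1 went the other way, with 3 and 4 cDNAs in motoneurons (8.36 and 12.5 CPM) against 51 and 10 in NSC34 cells (112 and 100 CPM) and a log2 ratio of -2.41 ± 0.56 (edgeR adjusted p = 0.000305). The synaptobrevins thus had opposite signs, and for Vamp1 the pooled NSC34 value lies at its IgG level, 110 CPM in both.

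Napb had 7 and 25 cDNAs in motoneurons (19.5 and 78.3 CPM) against 11 and 4 in NSC34 cells (24.1 and 40.1 CPM). These values overlap. The edgeR call of Napb (log2 ratio 1.70 ± 0.56, adjusted p = 0.0123) was lost without a scaling factor (0.76, edgeR adjusted p = 0.251) and in DESeq2 (1.56, adjusted p = 0.695). It was also lost with the replicate number as a block (1.21, edgeR adjusted p = 0.0915). The log2 ratio was 0.35 without motoneuron replicate 2, 0.99 without NSC34 replicate 1 and 1.76 without NSC34 replicate 2. Snap25 (0.56 ± 0.24, edgeR adjusted p = 0.0529), Nsf (0.67 ± 0.29, 0.0582), Napa (0.49 ± 0.61, 0.573) and Stx1a (-1.08 ± 0.55, 0.114) were not called. Without a scaling factor the first 3 of these turned to -0.39, -0.28 and -0.46. In CPM, Nsf had 156 and 182 in motoneurons against 223 and 160 in NSC34 cells, values that overlap. Stx1a had 4 and 8 cDNAs in motoneurons (11.1 and 25.0 CPM) against 32 and 8 in NSC34 cells (70.1 and 80.2 CPM). It was called without a scaling factor (-2.02, edgeR adjusted p = 0.00077), and without motoneuron replicate 2 its log2 ratio was -1.81. Napa had 10 and 6 cDNAs in motoneurons (27.9 and 18.8 CPM) against 15 and 3 in NSC34 cells (32.8 and 30.1 CPM). For Snap25 and Napa both motoneuron CPM values lay under both NSC34 values, against the sign of their edgeR ratios with scaling.

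The 4 calls of 8 members stand beside 37.3% of 9567 genes called in this comparison, 23.4% in the higher and 13.9% in the lower direction, and a share near such a background is no result about the members. Scaling matters here, since omitting the TMM factor moved the median log2 ratio of all genes to -0.86, against 0.08 with it, and the calls over all genes to 1343 higher and 3554 lower, against 2237 higher and 1329 lower. Among the called members Sv2a, Vamp2 and Vamp1 kept their direction in all 10 alternative fits of this comparison. In DESeq2 their log2 ratios were 3.39 for Sv2a, 2.27 for Vamp2 and -2.42 for Vamp1, with none called (adjusted p of 0.437, 0.404 and 0.259). Without NSC34 replicate 1 the calls of Sv2a (log2 ratio 2.14, edgeR adjusted p = 0.246) and Vamp2 (2.02, 0.116) were lost. Without a scaling factor the log2 ratios were 1.30 for Vamp2 (edgeR adjusted p = 0.0528), 2.75 for Sv2a (0.0183) and -3.34 for Vamp1 (1.87e-08).

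**Figure D2:**
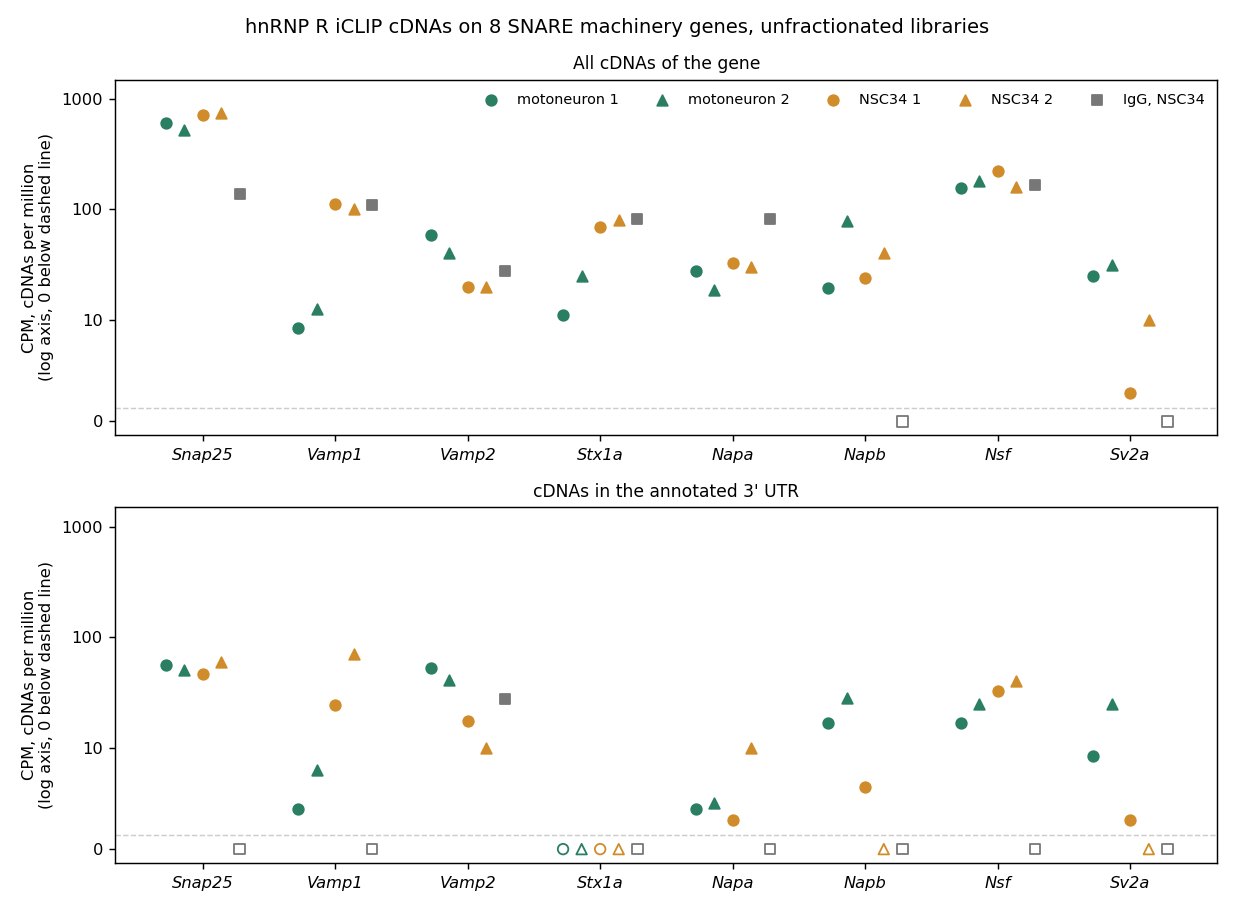
CPM of each library (cDNAs scaled to the library total) on a log axis for the 8 genes, over the whole gene (upper panel) and in the annotated 3' UTR (lower panel). Motoneuron libraries (green) stand left of NSC34 libraries (orange) and of the IgG library (grey squares), circles and triangles are replicates 1 and 2, and open symbols under the dashed line are counts of 0. Over the whole gene, Snap25 in hnRNP R libraries lies above the IgG library, which is from NSC34 cells only. Vamp2 and Sv2a lie higher in motoneurons, and Vamp1 lies lower in motoneurons.

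The share of cDNAs in the 3' UTR differed widely between the members, with Vamp2 at the high end and Snap25, Nsf and Napa at the low end. Over the motoneuron libraries pooled, 32 of 34 Vamp2 cDNAs lay in the 3' UTR (94.1%, 95% interval 80.3 to 99.3%, exact Clopper-Pearson) and 0 in introns, where a count of 0 allows a share of up to 10.3% by the same interval. Sv2a had 11 of 19 cDNAs in the 3' UTR (57.9%, 33.5 to 79.7%) and Napb 15 of 32 (46.9%, 29.1 to 65.3%). Snap25 had 36 of 384 cDNAs there (9.38%, 6.65 to 12.7%) and 83.3% in introns, Nsf 14 of 114 (12.3%, 6.88 to 19.7%) and 81.6% in introns, and Napa 2 of 16 (12.5%, 1.55 to 38.3%). Over all genes of these libraries 6.13% of cDNAs lay in 3' UTRs and 87.4% in introns. Stx1a had 0 cDNAs in a 3' UTR in any of the 11 libraries, with 10 of its 12 motoneuron cDNAs in introns, and since the files gave no 3' UTR length for it, whether cDNAs could be counted there is not known. Vamp2 is a compact gene (GRCm38 chromosome 11, 69088490 to 69092384), and no share was adjusted for the length of introns. The intervals cover counting error only.

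In NSC34 cells Vamp2 had a similar split, with 9 of 11 cDNAs in the 3' UTR (81.8%, 48.2 to 97.7%) and 0 in introns. These counts were not separable from IgG, whose 1 Vamp2 cDNA also lay in the 3' UTR. Snap25 (27 of 405, 6.67%) and Nsf (19 of 118, 16.1%) again lay mostly in introns, at 82.5% and 80.5%. Napb had 2 of 15 cDNAs in the 3' UTR in NSC34 cells (13.3%, 1.66 to 40.5%), an interval that overlaps the motoneuron one. In the motoneuron libraries singly, the Napb share was 85.7% of 7 cDNAs and 36.0% of 25, and the Sv2a share 33.3% of 9 and 80.0% of 10, so these shares varied widely between replicates. Vamp1 had 18 of 61 cDNAs in the 3' UTR in NSC34 cells (29.5%, 18.5 to 42.6%) and 3 of 7 in motoneurons. Its annotated extent is uncertain: the authors' deposited RNA table gives Vamp1 28993 bases (GRCm38 chromosome 6, 125215551 to 125244543), against 6726 bases in RefSeq, so that intronic cDNAs counted for it may lie beyond the RefSeq gene.

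**Figure D3:**
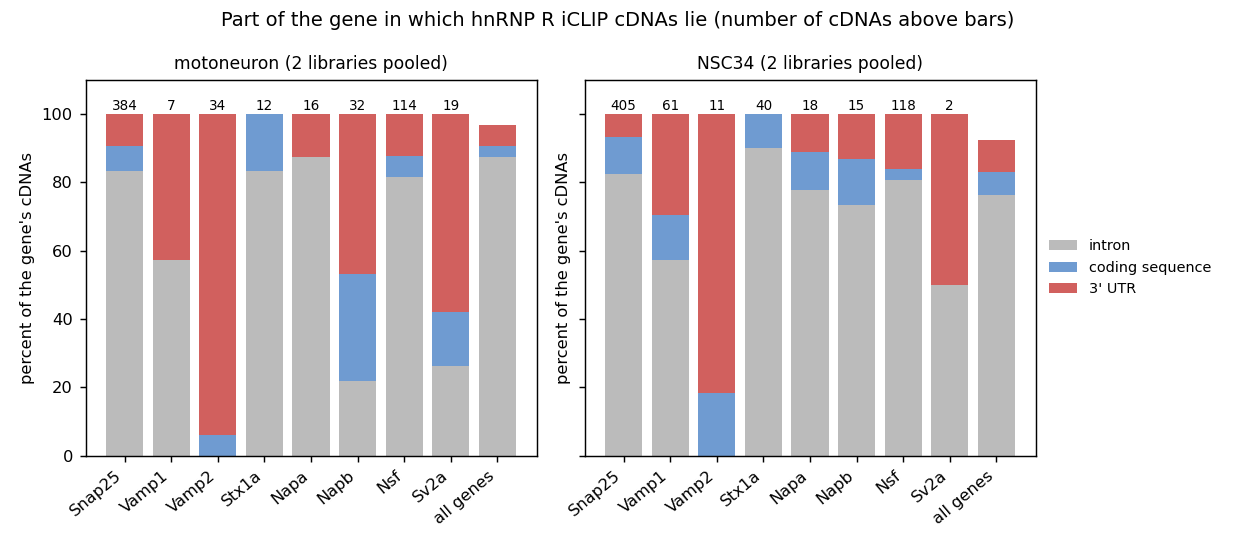
Percent of each gene's cDNAs in introns (grey), coding sequence (blue) and 3' UTR (red) for motoneurons (left) and NSC34 cells (right), with the 2 libraries of each pooled and the number of cDNAs above each bar. The bar for all genes stops short of 100% because noncoding RNAs and 5' UTRs are not drawn. Vamp2 is mostly 3' UTR, at 94.1% in motoneurons and 81.8% of 11 cDNAs in NSC34 cells, while Snap25 and Nsf are mostly intron.

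Restricted to 3' UTRs, 3 of the 6 members with enough cDNAs were called higher in motoneurons than in NSC34 cells, where 26.0% of 2400 genes were called, 16.3% in the higher and 9.67% in the lower direction. Vamp2 had 19 and 13 such cDNAs in motoneurons against 8 and 1 in NSC34 cells (edgeR log2 ratio 2.40 ± 0.64, adjusted p = 0.00156). Napb had 6 and 9 in motoneurons against 2 and 0 in NSC34 cells (3.30 ± 0.98, edgeR adjusted p = 0.00527), and Sv2a 3 and 8 in motoneurons against 1 and 0 in NSC34 cells (3.64 ± 1.28, edgeR adjusted p = 0.0221). The counts are small, and for Napb and Sv2a the 0 in NSC34 replicate 2 allows up to 30.1 CPM (3 counts), above their motoneuron 3' UTR values of 16.7 and 28.2 CPM for Napb and 8.36 and 25.0 CPM for Sv2a, so a separation from that library was not detectable. All 3 calls were lost without NSC34 replicate 1, with log2 ratios of 2.89 for Vamp2, 5.37 for Napb and 4.93 for Sv2a (edgeR adjusted p of 0.114, 0.131 and 0.174), and with no filter on low counts, with 2.23, 3.11 and 3.46 (edgeR adjusted p of 0.0736, 0.109 and 0.156). In DESeq2 Vamp2 was not called (2.76, adjusted p = 0.176), and Napb (3.87) and Sv2a (4.08) were given no adjusted p. With the replicate number as a block the call of Sv2a was lost (3.36, edgeR adjusted p = 0.149). Vamp1 had 1 and 2 in motoneurons against 11 and 7 in NSC34 cells (-2.06 ± 0.90, edgeR adjusted p = 0.0741). It was called lower without a scaling factor (-2.38, edgeR adjusted p = 0.0291), and its log2 ratio was -3.09 without NSC34 replicate 1. Snap25 (20 and 16 in motoneurons against 21 and 6 in NSC34 cells, 0.98 ± 0.51, edgeR adjusted p = 0.152) was not called. Nsf had 6 and 8 in motoneurons against 15 and 4 in NSC34 cells (0.13 ± 0.65, edgeR adjusted p = 0.911). Without a scaling factor the calls over all genes were 341 higher and 351 lower, against 391 higher and 232 lower with it, and with RLE size factors 415 higher and 133 lower.

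Per kilobase of annotated 3' UTR, Snap25 was the most densely crosslinked of the members in motoneurons, at 43.4 and 39.0 CPM per kilobase, followed by Vamp2 at 24.3 and 18.7. Nsf had 7.92 and 11.9, Sv2a 5.21 and 15.6, Napb 5.25 and 8.85, Napa 2.25 and 2.53 and Vamp1 1.06 and 2.37 on the same scale in motoneurons. Nsf, Sv2a and Napb overlap in this order, while both values of Snap25 lie above those of Vamp2, and both of Vamp2 above the rest. The order rests on few cDNAs, 20 and 16 for Snap25, 19 and 13 for Vamp2 and 8 for Sv2a in replicate 2. Snap25 and Vamp2 have similar counts but annotated 3' UTRs of 1285 and 2182 bases. No counting interval was set on these densities, so whether the order holds was not tested. In NSC34 cells Snap25 was at 35.8 and 46.8, with Vamp1 at 9.13 and 26.6, Nsf at 15.6 and 19.0 and Vamp2 at 8.03 and 4.59 CPM per kilobase. The IgG library held 1 cDNA in the 3' UTRs of all 8 genes, in Vamp2 (12.6 CPM per kilobase), above both NSC34 values of Vamp2. Its 0 for Snap25 allows up to 82.7 CPM (3 counts). That is above the Snap25 3' UTR values of 55.7 and 50.1 CPM in motoneurons and 46.0 and 60.1 CPM in NSC34 cells, so a separation from IgG was not detectable. The densities were not set against RNA level, which was highest for Snap25 and Vamp2 (194 and 152 FPKM in control cell bodies).

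In the fractions of motoneurons, Snap25 and Vamp2 had fewer CPM in the nuclear than in the cytoplasmic library, with 1 library of each kind and no call. In the edgeR fit over all 3 pairs the log2 ratio of nuclear over cytoplasmic was 0.21 ± 1.72 (SE) for Snap25, against -0.54 without a scaling factor, and -1.32 ± 2.05 for Vamp2, so no direction was resolved. Snap25 had 26 cDNAs in the motoneuron nuclear library (285 CPM) against 106 in the cytoplasmic one (544 CPM), and 1 against 13 of these lay in the 3' UTR. Vamp2 had 1 nuclear cDNA (11.0 CPM) against 9 cytoplasmic ones (46.2 CPM), and Nsf 21 nuclear (230 CPM) against 28 cytoplasmic (144 CPM). In NSC34 cells Snap25 had 39 nuclear cDNAs against 1 cytoplasmic with antibody 1, and 5 against 5 with antibody 2, from libraries that hold 3569 and 2796 cDNAs on the cytoplasmic side. The other 7 members had 0 cDNAs in both NSC34 cytoplasmic libraries, where 3 counts would be 841 and 1073 CPM, so lower levels were not detectable at this depth. In the edgeR fit with a block for each pair of fractions, 0 of the 6 members tested were called, as were 0% of 5177 genes (27 at an unadjusted p under 0.05, and 2 in DESeq2). In the fit of 3' UTR cDNAs 0 of 2 members were called, where 0.260% of 384 genes were.

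Other genes of the machinery were compared by their iCLIP calls, whose libraries and scaling they share with the members. Of 18 further vesicle membrane proteins tested, 14 were higher in motoneurons than in NSC34 cells and 0 lower, of 25 endocytosis genes 10 were higher and 0 lower, of 31 SNARE regulators 14 were higher and 2 lower, and of 24 other SNAREs 1 higher and 4 lower. Over all genes 23.4% were higher and 13.9% lower. Without a scaling factor these counts became 5 higher and 2 lower for the membrane proteins, 7 higher and 3 lower for endocytosis, 11 higher and 7 lower for the regulators and 0 higher and 12 lower for other SNAREs. Without NSC34 replicate 1, higher were 4 of 17 membrane proteins, 7 of 24 endocytosis genes, 8 of 27 regulators and 0 of 20 other SNAREs, and without motoneuron replicate 1 the membrane proteins had 7 of 17. Without NSC34 replicate 2 they had 9 of 18. In DESeq2 2 of 23 membrane proteins, 6 of 25 endocytosis genes, 6 of 39 regulators and 0 of 27 other SNAREs were higher. The median log2 ratios with scaling were 1.43, 0.91, 0.84 and -0.22 in that order, beside 0.62 for the members and 0.08 for all genes tested. Slc17a6, the vesicular glutamate transporter VGLUT2, had 98 and 77 cDNAs in motoneurons and 0 in both NSC34 libraries (edgeR adjusted p = 4.51e-20), and Amph, the endocytic protein amphiphysin, 136 and 90 in motoneurons and 0 in both NSC34 libraries (edgeR adjusted p = 8.5e-22). Sh3gl2 (endophilin A1) had 142 and 90 cDNAs in motoneurons against 11 and 6 in NSC34 cells, and Unc13c (a Munc13 priming factor) 55 and 75 in motoneurons against 4 and 1 in NSC34 cells. Slc6a17 (a vesicular amino acid transporter) had 64 and 20 cDNAs in motoneurons against 0 and 0 in NSC34 cells. The part of other neuron types and glia in the motoneuron libraries in these counts was not tested.

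In 3' UTRs Dnm3 (a dynamin) had 21 and 26 cDNAs in motoneurons against 2 and 0 in NSC34 cells, and Slc17a6 had 21 and 15 in motoneurons against 0 and 0 in NSC34 cells. Itsn1 (intersectin) had 15 and 12 in motoneurons against 3 and 2 in NSC34 cells, Eps15, an endocytic adaptor, 17 and 29 in motoneurons against 14 and 2 in NSC34 cells, Stxbp6 5 and 7 in motoneurons against 0 and 0 in NSC34 cells, and Syt4 (a synaptotagmin) 13 and 33 in motoneurons against 14 and 7 in NSC34 cells. The edgeR adjusted p-values of these 6 genes ran from 6.56e-09 (Dnm3) to 0.0103 (Syt4). The 2 calls among regulators became 0 with the replicate block, without motoneuron replicate 2, without NSC34 replicate 1 and in DESeq2, and the 3 calls among endocytosis genes became 1 without NSC34 replicate 1 and in DESeq2. Over IgG in NSC34 cells the sole call in these lists, with all 5 libraries in the fit, was Unc13a, the Munc13-1 priming factor, which was lower, with 42 and 6 cDNAs in NSC34 cells against 28 in the smaller IgG library (log2 ratio -2.94 ± 0.46, edgeR adjusted p = 1.31e-05). Without NSC34 replicate 2 and in DESeq2 0 SNARE regulators were called, and without the motoneuron libraries 2 regulators were higher and 2 lower. Of all genes called over IgG, 19 were higher and 32 lower (0.334% of those tested), and without a scaling factor 10 higher and 71 lower.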

How the data were processed

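RNA came from 22 libraries in 6 groups and crosslinked cDNAs from 11 iCLIP libraries in 9 groups. The authors derived FPKM with Cufflinks 2.2.1, reads having been checked with FastQC 0.10.1, on GRCm38, per the submitters' processing notes, as 1 value per group, scaled within each of 4 deposited tables. The log2 ratio, the test score and each p-value and q-value are the authors' deposited values, and q was read over the tested genes of each table. The iCLIP cDNA counts were summed by the authors per gene, part of the gene and strand on mm9 with Ensembl 59, per the file headers, and the deposited 3' UTR density signal gave the 3' UTR length. No source used here names the aligner. A further 1243 per-sample columns were not used.

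For counts, edgeR 4.0.16 under R 4.3.3 was used (quasi-likelihood, TMM, at least 10 cDNAs over a fit, Benjamini-Hochberg at 0.05 over all genes), with DESeq2 1.42.0 as an alternative. The SE of a log2 ratio is the ratio divided by the root of the F statistic. The 5 unfractionated libraries shared a fit, which takes the spread of the single IgG library from the other groups. The 6 fractions were fitted with a block per pair of the same cells and antibody. The edgeR procedure was run on simulated counts for the whole-gene comparison of motoneurons with NSC34 cells only. That run did not cover the IgG, fraction or 3' UTR fits or the choice of scaling. Tables were handled with pandas 2.3.3 in Python 3.11.15. Members, lists and tests were chosen with earlier results of these data known. Other list genes are named where q was under 0.05, at most 6 per contrast by smallest q. Some genes that these rules name are not reported here. Same-numbered motoneuron and NSC34 replicates did not deviate together (r = -0.002 over 5165 genes), so the number was not taken as a pairing.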

Additional observations from a re-analysis of the deposited data

How the results depend on the processing

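For motoneurons over NSC34 cells, 4 members were called, against 0 in DESeq2 and 1 to 5 when a library was left out, the lowest without NSC34 replicate 1. The calls over all genes were 3566, against 999 in DESeq2, 3515 without the IgG library and 1954 to 3106 with a motoneuron or NSC34 library left out. In 3' UTRs 3 members were called, all higher in motoneurons, against 0 in DESeq2 and 0 with no filter. With a library left out the called members changed. Vamp1, lower in motoneurons, had a log2 ratio of -3.09 without NSC34 replicate 1, against -2.06 in the main fit. It was called lower without a scaling factor (-2.38, edgeR adjusted p = 0.0291). Over all genes 623 were called, against 104 in DESeq2, 279 with no filter, 347 with the replicate block, 632 without the IgG library and 177 to 511 with a motoneuron or NSC34 library left out. With the replicate number as a block, 4 members were called over whole genes and 2 in 3' UTRs (Sv2a lost, log2 ratio 3.36), and Snap25 was called (0.56), although the number does not pair the libraries. Over IgG 1 member was called, against 0 in DESeq2 and 0 to 1 with a library left out. Over all genes 51 were called, against 81 without a scaling factor, 3 in DESeq2, 187 without the motoneuron libraries and 6 to 38 with a library left out. Between fractions 0 genes were called, against 1 with RLE or no scaling factor, 2 in DESeq2 and 0 to 6 with a pair left out, and 0 without the block. In 3' UTRs there was 1, against 0 with no scaling factor, DESeq2, no filter or no replicate block and 0 to 1 with a pair left out. Without a scaling factor the ratio turned to -0.39 for Snap25, -0.46 for Napa and -0.28 for Nsf, and in 3' UTRs to -0.18 for Nsf, which was also -0.03 with no filter and between -0.20 (without NSC34 replicate 1) and 0.35 with a library left out. The causes were not tested. In the axon group labelled 7SK knockdown 2 members lay below 0 after centring, against 0 before. Counts of RNA members called did not move by over 1.5 times at a q of 0.10 or an unadjusted p of 0.05. Depth limits the NSC34 fractions and the IgG library most.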
